A study of Mus musculus with 14 samples.

Results

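The macrophage lipid nuclear receptor network was taken as 9 genes, which are the lipid-sensing nuclear receptors Nr1h2 (LXRβ), Nr1h3 (LXRα), Pparg and Rxra, and the lipid genes Abca1, Abcg1, Apoe, Lpl and Plin2. The members were listed by name, 9 of the 21774 protein-coding genes of the RefSeq GRCm38 annotation. The rule used no binding value, but the list was drawn up with earlier results of these data known. A ChIP-seq peak was assigned to a member when it overlapped the annotated span of the gene extended by 20 kb on each side. These 9 windows held 200 of the 158488 peaks in the 14 deposited lists, and merging overlapping peaks across the lists gave 144 of 117293 regions.

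The study mapped transcription factors along the differentiation of mouse embryonic stem (ES) cells of strain 129 into macrophages. Cells came from 1 ES line with GFP at the Brachyury (Bry) locus and were sorted at 5 stages: Bry+ Flk1- mesoderm (MES), Bry+ Flk1+ hemangioblasts (HB), Tie2+ cKit+ CD41- hemogenic endothelium (HE), CD41+ hematopoietic progenitors (HP) and CD11b+ macrophages (MAC). No group carried a treatment or a further allele. C/EBPβ was mapped at all 5 stages, ELK4 in MES, GATA2 in HB and HP, PU.1 and RUNX1 in HP and MAC, and GATA1 and GFI1B in HP, and the HE material was precipitated with added carrier mRNA and histone H2B. Each stage and factor had 1 list and no replicate, so no difference between stages or loci could be set against replicate error, no test was run, and every interval given is an exact (Clopper-Pearson) 95% interval that covers counting error only.

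LXRα and LXRβ bind oxysterols, PPARγ binds fatty acids and their derivatives, and each of them binds DNA as a heterodimer with RXRα. LXR heterodimers recognise pairs of the hexamer AGGTCA in direct repeat with 4 bases between them, and PPAR heterodimers recognise the same pair with a single base between. In macrophages these receptors are known to control cholesterol efflux through ABCA1 and ABCG1, secretion of apolipoprotein E, hydrolysis of lipoprotein triglyceride by LPL, and lipid droplets coated by PLIN2. The receptors themselves were not precipitated in this series, and the files hold no expression values, so the report concerns where PU.1, C/EBPβ and the other factors sat at these genes.

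The lists differed widely in length, from 72 peaks (MAC RUNX1) to 82866 (MAC PU.1). The HE C/EBPβ list held 132 peaks, the HP lists 250 to 10943 and the MAC C/EBPβ list 55471. All peaks were 400 bp wide and carried no score or height, and the significance threshold was set separately for each list. For C/EBPβ the study's supplement reports the strictest threshold in HE and the loosest in MAC. A count of peaks in a late list and an early list therefore differs with list length as well as with occupancy, and the part of each was not tested. Of the 6 macrophage marker genes listed for a check of the labels (Itgam, Csf1r, Adgre1, Cd68, Lyz2 and Mertk), all 6 held MAC C/EBPβ and MAC PU.1 peaks, but so did the mesodermal genes T and Mesp1, and peak positions do not measure expression.

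The sequences that carry the main observations are shown first. All are from the RefSeq GRCm38.p6 reference, which is C57BL/6J and not strain 129, written 5′ to 3′ on the strand of the gene. Capitals mark exact matches, on either strand, to TTGCNNAA (C/EBP), CCGGAAGT (ELK4), TGANTCA (AP-1) or AGATAA (bound by GATA factors), copies of AGGTCA in direct repeat with a spacer of 1 or 4 bases and up to 2 mismatches over the 12 hexamer bases, and the letters TTGCGACA (written TGTCGCAA on the other strand), which were added after the sequences had been read. Windows were cut so that no more than 30 bases of annotated exon were kept.

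The first set holds the 3 regions that were present in 4 of the 14 lists. The first of them covers the Nr1h3 start site, the second the start site shared by Acp2 and an upstream Nr1h3 model, and the third the first part of Abcg1.
Nr1h3, chr2:91195148-91195252, minus strand: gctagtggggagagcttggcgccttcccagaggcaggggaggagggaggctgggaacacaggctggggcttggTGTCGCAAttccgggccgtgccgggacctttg
Nr1h3, chr2:91202830-91202859, minus strand: aaggacacttgCCGGAAGTgcagccttcgc
Abcg1, chr17:31074145-31074305, plus strand: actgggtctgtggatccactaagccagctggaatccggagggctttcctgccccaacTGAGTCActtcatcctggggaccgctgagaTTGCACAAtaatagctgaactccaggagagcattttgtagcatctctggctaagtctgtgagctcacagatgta

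The second set holds 5 regions that were present in 3 lists, beginning at the HP stage or before. They are the region between Apoc1 and Apoe, the region upstream of Abcg1, an Abca1 intron, the region upstream of Plin2 and the region downstream of Lpl.
Apoe, chr7:19693642-19693802, minus strand: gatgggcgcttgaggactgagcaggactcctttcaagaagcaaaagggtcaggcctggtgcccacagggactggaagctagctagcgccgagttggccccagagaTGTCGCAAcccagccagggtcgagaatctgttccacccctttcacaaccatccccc
Abcg1, chr17:31039710-31039870, plus strand: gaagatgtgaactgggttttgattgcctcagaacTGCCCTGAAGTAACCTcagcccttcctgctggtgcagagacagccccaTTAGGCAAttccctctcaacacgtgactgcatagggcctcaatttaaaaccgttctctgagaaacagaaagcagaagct
Abca1, chr4:53124882-53125042, minus strand: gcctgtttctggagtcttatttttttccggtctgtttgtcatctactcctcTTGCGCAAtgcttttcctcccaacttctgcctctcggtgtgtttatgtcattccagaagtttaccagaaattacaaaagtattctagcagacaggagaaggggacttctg
Plin2, chr4:86690308-86690468, minus strand: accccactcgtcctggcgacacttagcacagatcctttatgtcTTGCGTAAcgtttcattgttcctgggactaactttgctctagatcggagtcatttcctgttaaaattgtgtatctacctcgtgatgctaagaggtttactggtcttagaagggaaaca
Lpl, chr8:68914707-68914867, plus strand: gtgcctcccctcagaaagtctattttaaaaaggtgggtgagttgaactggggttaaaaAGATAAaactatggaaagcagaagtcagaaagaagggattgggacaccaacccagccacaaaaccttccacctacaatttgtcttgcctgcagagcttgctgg

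Promoters of 7 of the 9 members were in the RefSeq promoter table, with 13 start sites between them (Abcg1 and Lpl were not matched). Each tabulated promoter was 300 bp long. A direct repeat was found in those of Rxra (an internal start site) and Plin2, and these are shown for that reason. The Pparg promoter is shown for its 2 C/EBP matches and the Nr1h2 promoter for its 5 ELK4 matches, both picked after the matches had been seen.
Rxra, chr2:27709042-27709321, plus strand: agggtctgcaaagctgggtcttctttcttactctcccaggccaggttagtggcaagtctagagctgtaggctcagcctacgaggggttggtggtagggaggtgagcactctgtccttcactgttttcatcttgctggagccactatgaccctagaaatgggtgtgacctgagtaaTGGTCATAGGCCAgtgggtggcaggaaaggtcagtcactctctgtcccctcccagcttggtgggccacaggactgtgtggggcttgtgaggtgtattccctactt
Plin2, chr4:86670188-86670309, minus strand: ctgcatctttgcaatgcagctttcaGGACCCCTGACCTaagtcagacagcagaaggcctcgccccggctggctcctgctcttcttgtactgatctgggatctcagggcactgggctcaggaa
Pparg, chr6:115421816-115422095, plus strand: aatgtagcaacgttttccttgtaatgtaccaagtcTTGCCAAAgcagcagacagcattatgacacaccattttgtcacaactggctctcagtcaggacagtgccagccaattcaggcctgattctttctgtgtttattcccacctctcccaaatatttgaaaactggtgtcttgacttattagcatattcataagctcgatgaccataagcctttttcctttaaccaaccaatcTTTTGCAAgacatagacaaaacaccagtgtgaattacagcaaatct
Nr1h2, chr7:44553939-44554215, minus strand: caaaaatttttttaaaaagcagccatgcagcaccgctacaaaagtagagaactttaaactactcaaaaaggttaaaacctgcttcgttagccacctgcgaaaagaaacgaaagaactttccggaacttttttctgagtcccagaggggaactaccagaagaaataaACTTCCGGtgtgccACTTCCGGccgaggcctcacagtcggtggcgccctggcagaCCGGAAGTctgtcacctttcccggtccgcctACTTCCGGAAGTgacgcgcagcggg

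All 9 members held at least 1 MAC C/EBPβ peak and at least 1 MAC PU.1 peak, with 71 and 107 peaks respectively. Across all coding genes 73.8% of windows held a MAC C/EBPβ peak, 79.1% a MAC PU.1 peak and 71.4% both, so presence at 9 of 9 was close to the background. Density varied more between loci. The median over the members was 0.826 C/EBPβ peaks and 1.18 PU.1 peaks per 10 kb of window, beside 0.317 and 0.524 over the 21774 coding windows. The members' windows were also longer, with a median of 83.3 kb against 57.2 kb.

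Before the macrophage stage the members held 22 peaks, and 7 of the 9 members had at least 1, beside 51.9% of coding windows. Nr1h2 and Pparg were the members without one. Counted by region the members' share was not higher, since 11.1% of their merged regions held a peak before MAC, beside 14.7% of all merged regions. No interval was computed for these shares, so their difference was not assessed. HP C/EBPβ reached 5 of 9 members (7 peaks, background 14.8%) and HP PU.1 also 5 of 9 (7 peaks, background 38.2%). GFI1B, a transcriptional repressor, reached 2 in HP (background 11.8%). C/EBPβ reached 2 members in MES (background 6.47%) and 3 in HB (background 4.24%), which together were Nr1h3, Abcg1 and Apoe (3 of 9, background 7.98%). The study's supplement reports no enrichment by quantitative PCR for C/EBPβ in MES or HB, and these samples were sequenced regardless. ELK4 in MES reached 1 member (background 4.66%).

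In 6 of the 14 lists there was no peak at any member. These were HB GATA2 (background 0.363%), HE C/EBPβ (0.684%), HP RUNX1 (7.79%), HP GATA1 (1.75%), HP GATA2 (3.36%) and MAC RUNX1 (0.478%). With backgrounds this low, 0 of 9 does not set the members apart from other genes. The HE gap in the C/EBPβ series in particular coincides with a list of 132 peaks, called at the strictest threshold of the C/EBPβ lists. Loss of C/EBPβ at HE cannot be told apart from the shortness of that list or from its threshold.

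**Figure D1:**
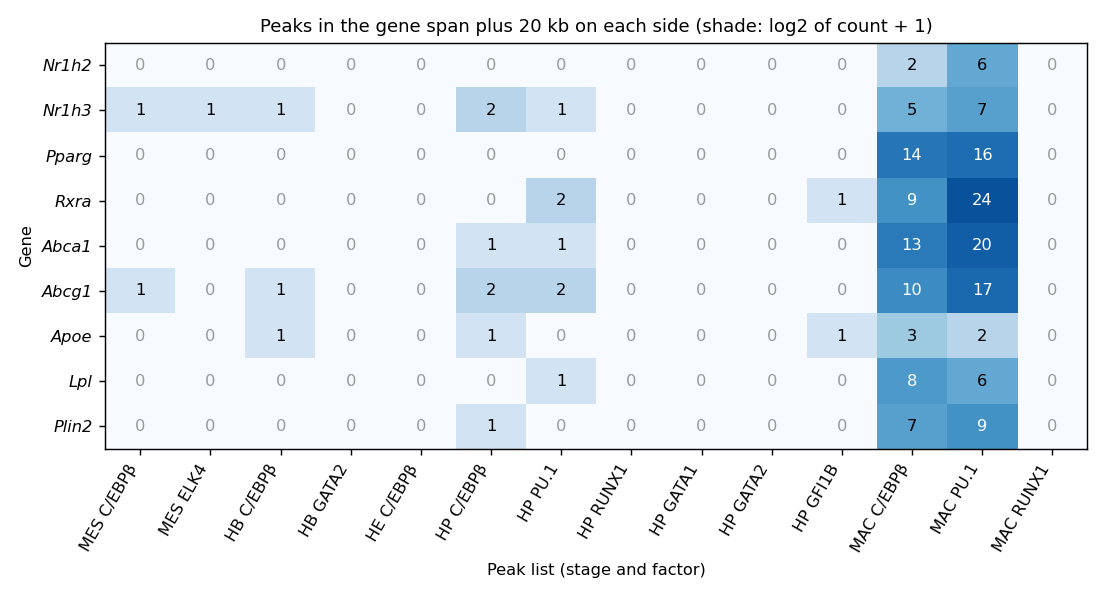
Number of peaks at each of the 9 genes (rows) in each of the 14 lists (columns, by stage and factor), with the count printed in each cell and the shade on a log2 scale. All 9 genes were occupied in the MAC C/EBPβ and MAC PU.1 lists, and the 22 earlier peaks included 6 each at Nr1h3 and Abcg1.

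The members without an early peak are described first among the receptors. Nr1h2, which encodes the widely expressed LXRβ, lies at chr7:44549616-44553968 on the minus strand and has a window of 44.4 kb shared with Napsa, Pold1 and Spib. It held 2 MAC C/EBPβ peaks and 6 MAC PU.1 peaks (0.451 and 1.35 per 10 kb). Its C/EBPβ density was the lowest of the 9 members, and 37.8% of coding windows were at least as dense. A single PU.1 peak was centred 51 bp upstream of its nearest start site, over the promoter printed above, and that peak contained all 5 CCGGAAGT matches. The letters were found in 3.89% of the 32817 promoters in the table, and neither the MES ELK4 list nor the HP lists had a peak here. Of the PU.1 peaks 3 of 6, and of the C/EBPβ peaks 1 of 2, lay nearer to the start site of Napsa or Spib than to that of Nr1h2.

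Pparg lies at chr6:115360879-115490404 on the plus strand, with no other coding gene in its 169.5 kb window, and encodes PPARγ, the receptor required for adipocyte and alveolar macrophage differentiation. All of its 14 C/EBPβ and 16 PU.1 peaks were from the MAC lists, and 11 and 12 of them lay inside the gene. Of the C/EBPβ peaks 9 of 14 contained TTGCNNAA, and 8 of 14 overlapped a PU.1 peak (57.1%, 28.9 to 82.3%). Its promoters differed in which factor was found there. At the upstream start site a PU.1 peak was centred 109 bp away and no C/EBPβ peak lay within 2 kb. At the internal start site (position 115422066) a C/EBPβ peak was centred 208 bp upstream, a further C/EBPβ peak 921 bp upstream, and no PU.1 peak overlapped the printed promoter. Both C/EBP matches of the printed Pparg promoter (bases -215 to -208 and -16 to -9 from the start site) fell within the nearer peak, whose centre was 3 bp from a match. At least 1 C/EBP match was present in 10.8% of all tabulated promoters.

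Nr1h3, which encodes the myeloid-enriched LXRα, was the receptor with the most early binding. It lies at chr2:91184061-91202829 on the minus strand, between Madd and Acp2, and held 6 peaks before MAC and 12 in MAC (5 C/EBPβ and 7 PU.1). Its start-site region (chr2:91194942-91195393) was a C/EBPβ peak in MES, HB, HP and MAC, and no PU.1 peak overlapped it. The nearest PU.1 peak (chr2:91194530-91194929) was in MAC, centred 387 bp downstream of the start site of the most upstream curated transcript. The 4 C/EBPβ centres fell within 52 bp of each other, at 53 bp (MES), 77 bp (HB), 25 bp (HP) and 70 bp (MAC) upstream of that start site. The Nr1h3 start site was thus in the C/EBPβ list of every stage except HE. The MES and HB lists carry the limit given above, of no enrichment by quantitative PCR. No TTGCNNAA was present in any of these 4 peaks. TTGCGACA was present once, at 7, 17, 35 and 10 bp from the respective centres.

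A separate early region of Nr1h3 (chr2:91202662-91203114) lay 7745 to 7798 bp upstream of that start site, over the start sites of Acp2 and of a longer Nr1h3 model. ELK4 occupied it in MES and C/EBPβ in HP, and the MAC lists had a peak of PU.1 and one of C/EBPβ. The CCGGAAGT printed above lay in this region, and no TTGCNNAA and no GAGGAAGT (PU.1) did. The early PU.1 peak at Nr1h3 was in HP, recurred in MAC with its centre 4 bp away, and was 46 bp from the Madd start site at the 3′ end of Nr1h3. Thus 3 of 5 MAC C/EBPβ and 5 of 7 MAC PU.1 peaks in the window were nearer to Acp2 or Madd than to Nr1h3. The density of HP C/EBPβ peaks at Nr1h3, 0.340 per 10 kb, was matched or exceeded in 0.822% of coding windows, a value that rests on 2 peaks.

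Rxra lies at chr2:27676445-27763319 on the plus strand and encodes RXRα, the partner shared by LXR and PPAR receptors. It held 24 MAC PU.1 peaks and 9 MAC C/EBPβ peaks, or 2.67 PU.1 peaks for each C/EBPβ peak, against 1.51 over the 9 members and 1.49 over the complete lists. Its PU.1 density of 1.89 per 10 kb was the highest of the members, and 4.59% of coding windows reached it. Of the PU.1 peaks 18 of 24 lay inside the gene and 5 of 24 overlapped C/EBPβ (20.8%, 7.13 to 42.2%). In HP the gene held 2 PU.1 peaks and a GFI1B peak, all intronic. The PU.1 peaks recurred in MAC with centres 6 and 18 bp away, and the GFI1B peak overlapped a MAC C/EBPβ peak centred 91 bp away. No list had a peak over either tabulated Rxra promoter, including the internal one that contained the repeat tggtcataggcca.

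**Figure D2:**
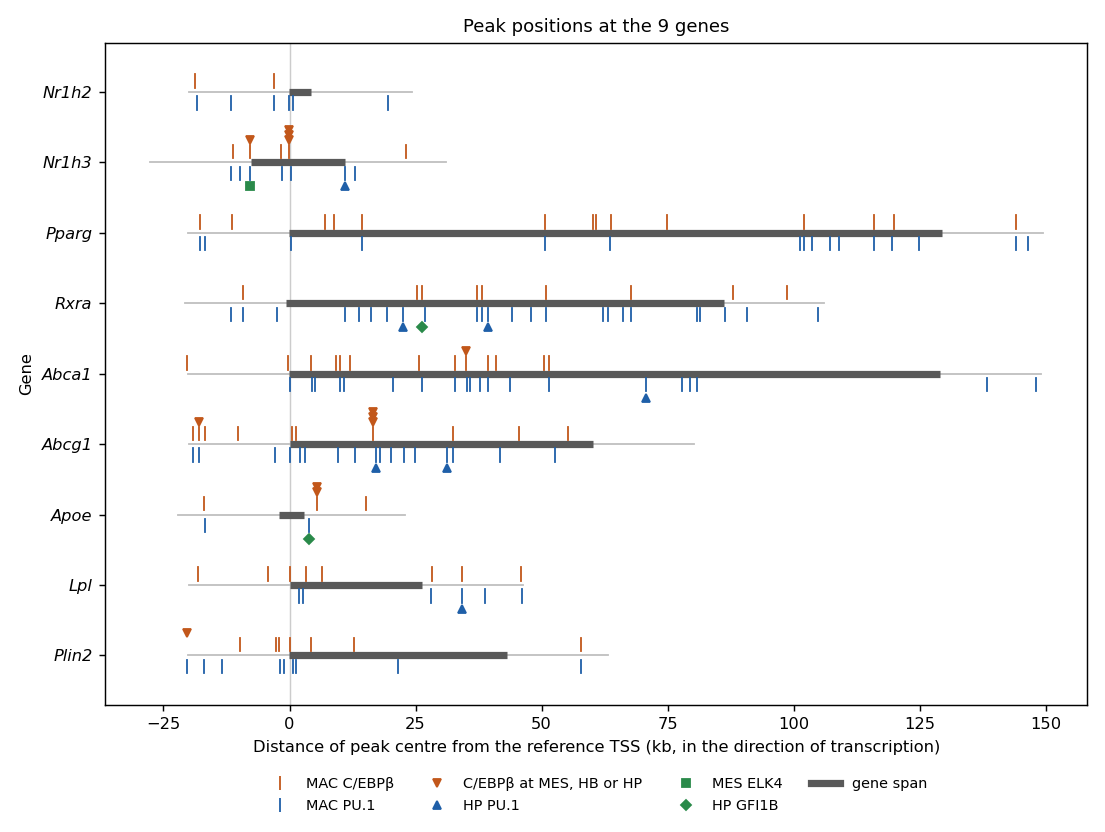
Peak centres at the 9 genes by distance from the reference transcription start site (kb, in the direction of transcription), with the gene span as a thick bar and the 20 kb extensions as a thin line. MAC C/EBPβ peaks are ticks above the line, MAC PU.1 peaks are ticks below it, and filled symbols are earlier lists. At Pparg, Rxra and Abca1 most peaks lay inside the gene, whereas none lay inside Apoe.

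Among the lipid genes the efflux transporters had the most MAC peaks by count, in the longest windows, whereas Lpl had the highest C/EBPβ density. Abca1 encodes the transporter that loads cholesterol onto lipid-poor apolipoprotein A-I, and lies at chr4:53030789-53159988 on the minus strand. It held 13 MAC C/EBPβ and 20 MAC PU.1 peaks, of which 11 and 18 lay inside the gene, and 7 of the C/EBPβ peaks overlapped PU.1. Both factors were present near its start site, with a PU.1 centre 39 bp downstream and a C/EBPβ centre 287 bp upstream of the same site. In HP it held a C/EBPβ peak and a PU.1 peak at separate introns, which lay 34936 and 70773 bp from the start site, so the early positions of the 2 factors did not coincide. The HP C/EBPβ peak recurred in MAC with its centre 7 bp away, and contained TTGCGCAA (printed above). Of the 71 MAC C/EBPβ peaks at the members it was the only one with this palindrome. The HP PU.1 peak recurred in MAC with its centre 37 bp away and contained GAGGAAGT at 7 bp from its HP centre and 14 bp from its MAC centre.

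Abcg1 encodes the transporter that moves cholesterol to high-density lipoprotein, and lies at chr17:31057694-31117984 on the plus strand. It held 10 MAC C/EBPβ and 17 MAC PU.1 peaks, and its PU.1 density of 1.70 per 10 kb was reached by 6.71% of coding windows. Its intronic region 16521 to 16543 bp into the gene was a C/EBPβ peak in MES, HB, HP and MAC, and the 4 centres fell within 22 bp. The match TTGCACAA printed above was 20 bp (MES), 3 bp (HB), 21 bp (HP) and 1 bp (MAC) from the centres, and TGAGTCA, an AP-1 match, lay in the same printed sequence. The PU.1 peaks nearest to it were separate. A PU.1 peak in HP and MAC, with centres 4 bp apart, was centred 17087 bp (HP) and 17091 bp (MAC) into the gene and did not overlap the C/EBPβ region. Another PU.1 peak in both stages lay 31226 bp (HP) and 31203 bp (MAC) into the gene and contained GAGGAAGT. Early binding at Abcg1 thus covered 4 separate regions, and the remaining one held both factors in MAC. Upstream of the gene, at 17905 bp, an HP C/EBPβ peak recurred in MAC with its centre 2 bp away, now beside a PU.1 peak centred 10 bp from the HP centre.

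Apoe, which encodes apolipoprotein E, was the member where the assignment to the gene was weakest. It lies at chr7:19696244-19701310 on the minus strand in a window of 45.1 kb with 6 other coding genes, Apoc1, Apoc2, Apoc4, Gm44805, Nectin2 and Tomm40. It held 3 MAC C/EBPβ and 2 MAC PU.1 peaks, none of the 5 lay inside Apoe, and all 5 were nearer to the start site of Apoc1, Apoc4 or Tomm40. Its PU.1 density of 0.444 per 10 kb was the lowest of the members and below the median of 0.524, and 55.5% of coding windows reached it. The region between Apoc1 and Apoe (chr7:19693505-19693939) was a C/EBPβ peak in HB, HP and MAC, with centres within 35 bp, 1045 to 1080 bp upstream of Apoc1 and 5449 to 5484 bp beyond the Apoe start site. It contained no TTGCNNAA and a single TTGCGACA, at 30, 45 and 10 bp from the HB, HP and MAC centres. A neighbouring region held GFI1B in HP and PU.1 in MAC, with centres 14 bp apart.

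Lpl encodes lipoprotein lipase and lies at chr8:68880555-68906932 on the plus strand, with no other coding gene in its window. It held 8 MAC C/EBPβ and 6 MAC PU.1 peaks, so that C/EBPβ peaks outnumbered PU.1 peaks here and at Apoe but at no other member. Its C/EBPβ density of 1.21 per 10 kb was the highest of the members and was reached by 4.03% of coding windows. A C/EBPβ peak was centred 72 bp downstream of the start site, and the nearest PU.1 peak 1973 bp downstream. The early peak was PU.1 in HP, 34230 bp from the start site and downstream of the gene. In MAC it recurred with its centre 4 bp away and C/EBPβ joined it, centred 6 bp from the HP peak, although neither GAGGAAGT nor TTGCNNAA was found in these peaks.

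Plin2 encodes perilipin 2, the coat protein of macrophage lipid droplets, and lies at chr4:86626910-86670217 on the minus strand. It held 7 MAC C/EBPβ and 9 MAC PU.1 peaks. Of the PU.1 peaks 5 were within 2 kb of a coding start site, 4 at Plin2 and the remaining peak at Haus6. The early peak was C/EBPβ in HP, centred 20295 bp upstream, and it overlapped the window by its edge only. In MAC a C/EBPβ peak centred 68 bp away lay just outside the window, and a PU.1 peak centred 7 bp away lay partly inside it. The match TTGCGTAA printed above was 68 bp from the HP centre and 0 bp from the MAC C/EBPβ centre. The repeat aggtcaggggtcc in the printed Plin2 promoter, at bases -225 to -213, lay outside the MAC C/EBPβ peak that covered the start site.

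**Figure D3:**
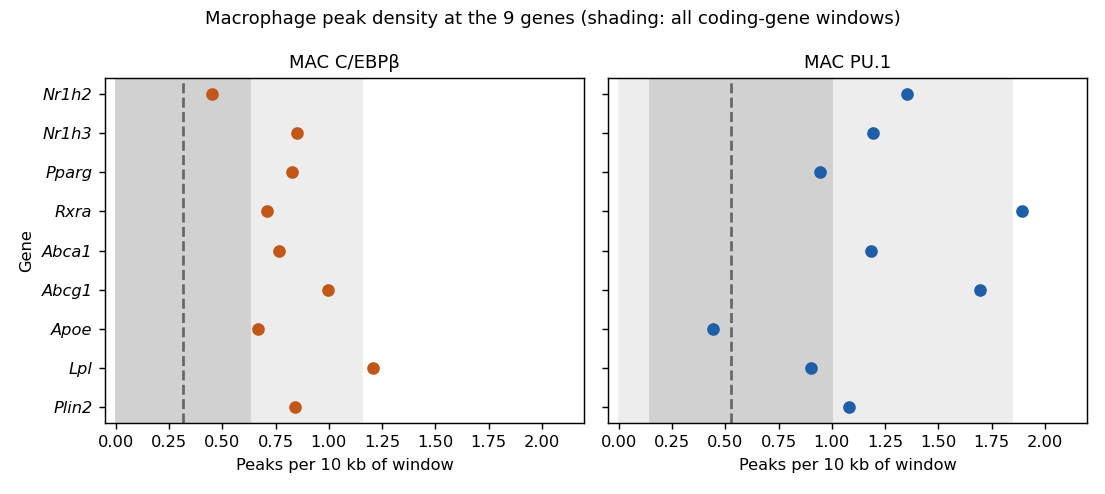
MAC C/EBPβ (left) and MAC PU.1 (right) peaks per 10 kb of window at each gene (points), over the distribution in all 21774 coding windows (dashed line, median; dark band, 25th to 75th percentile; light band, 5th to 95th percentile). For C/EBPβ 8 of 9 genes lay above the dark band, and for PU.1 6 of 9 did, with Apoe below the median.

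Receptors and lipid genes overlapped in their balance of the 2 factors. The 4 receptor windows (399.5 kb) held 30 MAC C/EBPβ and 53 MAC PU.1 peaks, or 1.77 PU.1 peaks per C/EBPβ peak, and the 5 lipid gene windows (464.2 kb) held 41 and 54, or 1.32. Within each group the ratio ran from 1.14 at Pparg to 3.00 at Nr1h2 among the receptors and from 0.667 at Apoe to 1.70 at Abcg1 among the lipid genes.

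The early peaks and the macrophage peaks were compared by position. The 22 early peaks fell in 16 regions, and all 16 also held a MAC peak, beside 84.0% of such regions in the whole series. All 7 HP PU.1 peaks overlapped a MAC PU.1 peak (59.0 to 100%), beside 97.0% of the whole HP PU.1 list. All 7 HP C/EBPβ peaks overlapped a MAC C/EBPβ peak, beside 91.4% of that list, as did the 2 MES and 3 HB C/EBPβ peaks, beside 66.4% and 68.8%. With 2 to 7 peaks each, these shares cannot be told apart from those of the whole lists.

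In HP no region at these genes held both factors. None of the 7 HP C/EBPβ peaks overlapped an HP PU.1 peak (0 of 7, 0 to 41.0%), beside 14.9% of the whole HP C/EBPβ list, which lies within that interval. Abca1, Abcg1 and Nr1h3 held both factors in HP but at different positions. In MAC 4 of the 7 HP C/EBPβ peaks overlapped PU.1 (57.1%, 18.4 to 90.1%), at Nr1h3, Abca1, Abcg1 and Plin2, beside 52.5% of the whole list. Of the 7 HP PU.1 peaks 1 overlapped C/EBPβ in MAC (14.3%, 0.361 to 57.9%), at Lpl, beside 36.0% of the whole list.

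**Figure D4:**
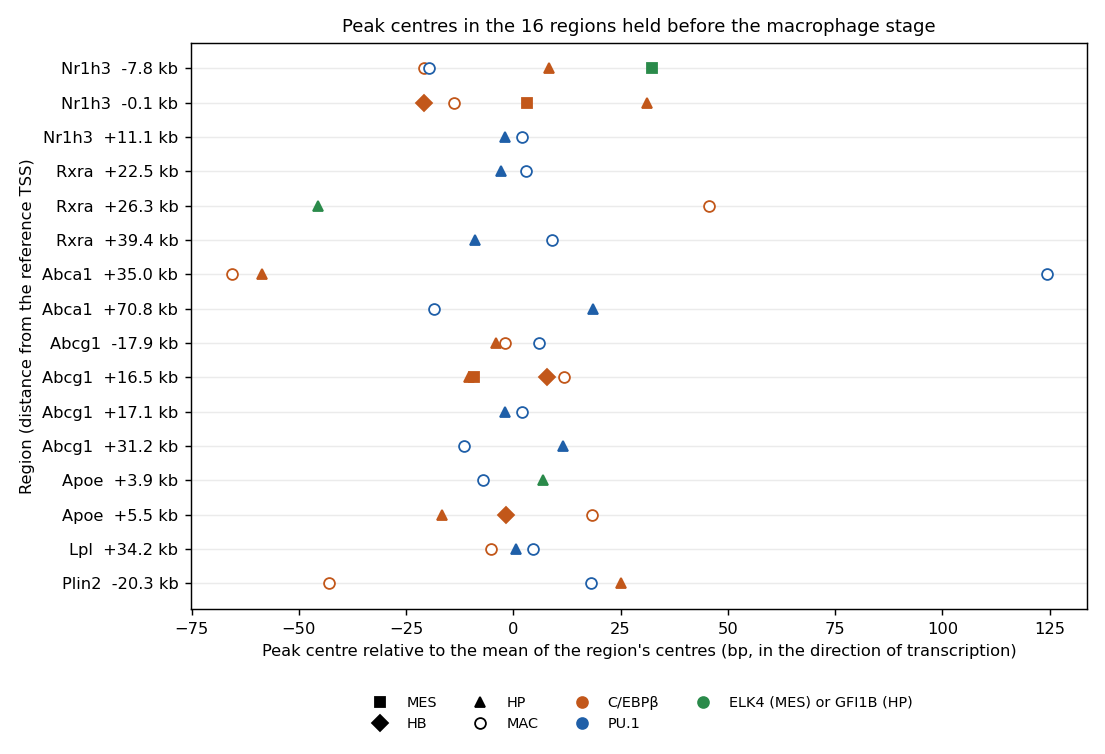
Positions of peak centres in the 16 regions that held a peak before MAC, relative to the mean of the centres in each region (bp, in the direction of transcription). Rows are regions named by gene and distance from the reference start site, open circles are MAC, filled symbols are earlier stages and colour is the factor. C/EBPβ centres at the Nr1h3 start site and in the Abcg1 intron fell within 52 and 22 bp over 4 stages.

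In MAC the 2 factors overlapped at the members about as often as elsewhere. Of the 71 C/EBPβ peaks 34 overlapped a PU.1 peak (47.9%, 35.9 to 60.1%), beside 42.5% of the whole list, and of the 107 PU.1 peaks 35 overlapped a C/EBPβ peak (32.7%, 24.0 to 42.5%), beside 28.5%. By locus the share of C/EBPβ peaks on PU.1 ran from 2 of 7 at Plin2 to 2 of 2 at Nr1h2. The median distance between the centres of overlapping peaks was 96.5 bp over 34 pairs, beside 65 bp in the whole lists, and 44.1% of pairs against 41.1% were within 50 bp. Of the 144 merged regions 35 held both factors in MAC, 72 held MAC PU.1 without MAC C/EBPβ and 37 held MAC C/EBPβ without MAC PU.1. In 65 and 33 regions respectively that peak was the only one in any of the 14 lists.

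Most macrophage peaks were away from promoters. Within 2 kb of a coding start site lay 15 of 71 C/EBPβ peaks (21.1%, 12.3 to 32.4%) and 22 of 107 PU.1 peaks (20.6%, 13.4 to 29.5%), beside 18.6% and 20.6% of the whole lists. Introns held 34 of the C/EBPβ and 59 of the PU.1 peaks. At Nr1h3 6 of 7 PU.1 and 3 of 5 C/EBPβ peaks were near start sites, including those of Acp2 and Madd. At Plin2 5 of 9 PU.1 peaks were, including a peak at the Haus6 start site.

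Motif letters were counted in the peaks as a description, since a match is not a measured site. TTGCNNAA was found in 31 of 71 MAC C/EBPβ peaks (43.7%, 31.9 to 56.0%), beside 41.9% of the list, and GAGGAAGT in 18 of 107 MAC PU.1 peaks (16.8%, 10.3 to 25.3%), beside 24.4%. GAGGAAGT and CCGGAAGT share GGAAGT but cannot match the same bases in the same orientation. Motif shares were examined in 40 pairs of motif and list (9 motifs and the combined class of direct repeats, in the MAC and HP lists of C/EBPβ and PU.1), and the whole-list share fell outside the members' interval in 3 of them, all for direct repeats. The combined class, with a spacer of 1 or 4, was in 19 of 107 MAC PU.1 peaks (17.8%, 11.0 to 26.3%), beside 10.7% of the list, and in 3 of 7 HP C/EBPβ peaks (42.9%, 9.90 to 81.6%), beside 8.95%. Repeats with a spacer of 4 alone were in 12 of 107 MAC PU.1 peaks (11.2%, 5.93 to 18.8%), beside 4.72% of the list, and in 7 of 71 MAC C/EBPβ peaks (9.86%, 4.06 to 19.3%), beside 4.69%. Abcg1 held 6 of the 12 PU.1 peaks, and without Abcg1 the share was 6 of 90 (6.67%, 2.49 to 13.9%), an interval that includes the whole-list share. The combined class also drew on Abcg1, which had 1 further MAC PU.1 peak with a spacer of 1. In HP the 2 C/EBPβ peaks with a spacer of 4 were both at Abcg1. No combined share without Abcg1 was computed.

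The Abcg1 repeats were spread over the locus. They lay in peaks from the upstream region, where an HP C/EBPβ peak contained aggttacttcagggca, through the promoter to the intron, and 1 of them, aggttaatgtaggtca at chr17:31075705-31075720 in a MAC PU.1 peak, had a single mismatch. That was the only peak with a repeat of up to 1 mismatch among the 178 MAC peaks at the members. The early C/EBPβ region of Apoe also contained a repeat with a spacer of 4, gggtcactgtcggtca, which lay inside the MAC peak. With a spacer of 1, repeats were in 9 of 107 PU.1 peaks (8.41%, beside 6.46%) and in 2 of 71 C/EBPβ peaks (2.82%, beside 6.55%), and of the 9 Plin2 and Rxra had 3 each and Nr1h2, Abca1 and Abcg1 1 each. Of all tabulated promoters, which at 300 bp are shorter than the peaks, 3.86% contained a repeat with a spacer of 1 and 3.02% one with a spacer of 4.

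**Figure D5:**
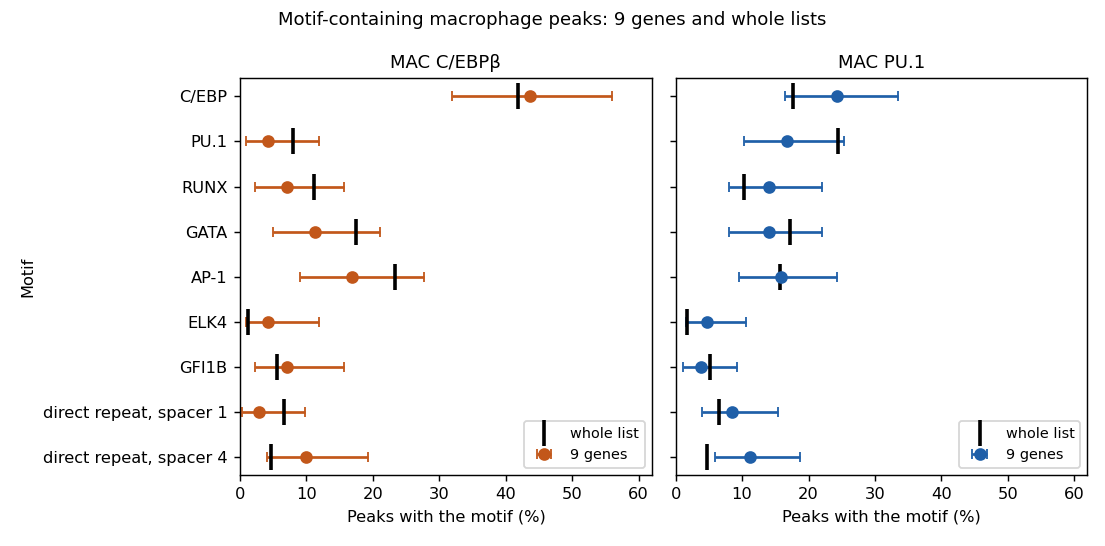
Percent of MAC C/EBPβ (left) and MAC PU.1 (right) peaks that contain each motif, at the 9 genes (points with exact 95% intervals) and in the whole list (black bars). Of the 18 pairs drawn, the whole-list bar lies inside the interval except for direct repeats with a spacer of 4 in PU.1 peaks, at 4.72% against an interval from 5.93%.

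The wider pathway was read from 59 other genes in 5 lists, which were other nuclear receptors and cofactors (17), LXR targets (11), PPAR targets (9), cholesterol handling (12) and lipid droplets (10). MAC PU.1 peaks were present at 59 of 59 (background 79.1%) and MAC C/EBPβ peaks at 57 of 59 (background 73.8%). The median densities were 0.691 C/EBPβ and 1.07 PU.1 peaks per 10 kb, beside 0.826 and 1.18 at the members. HP PU.1 reached 35 of the 59 (59.3%, background 38.2%) and HP C/EBPβ 13 of 59 (22.0%, background 14.8%). Genes with both included the cofactor genes Ncor1, Ppargc1b and Nrip1, which encode corepressors and a coactivator of nuclear receptors. HP GFI1B reached 14 of 59 (23.7%, background 11.8%). The 3 HP lists with no peak at the 9 members also had peaks at these genes, RUNX1 at 10 of 59 (16.9%, background 7.79%), among them Ppard, Rara and Ncor1, GATA2 at 8 of 59 (13.6%, background 3.36%) and GATA1 at 3 of 59 (5.08%, background 1.75%). ELK4 in MES reached 4 of 59 (6.78%, background 4.66%) and RUNX1 in MAC 2 of 59 (3.39%, background 0.478%), while HB GATA2 and HE C/EBPβ reached 0 of 59 (backgrounds 0.363% and 0.684%). C/EBPβ in MES was present at 4 of the 59 genes (6.78%, background 6.47%), which were Rarg, Ppargc1b, Nrip1 and Dgat2. C/EBPβ in HB was present at 5 of the 59 (8.47%, background 4.24%), which were Rarg, Ppargc1b, Nrip1, Apoc1 and Apoc2. Apoc1 and Apoc2, counted among the LXR targets, lie in the Apoe window and share peaks with it.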

How the data were processed

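ChIP-seq peaks of 7 factors were deposited as 14 coordinate lists, 1 per stage and factor. Per the study's methods and the labels, the authors trimmed reads (CutAdapt), aligned them to mm10 (Bowtie), kept unique reads, removed duplicates (Picard), called peaks against input with a p-value threshold chosen for each list (MACS), refined them with polyPeak and set each peak to 400 bp around its summit. Some lists merge sequencing runs. Tool versions are not given in the sources used here. The deposited values are positions only, with no score, count or depth. The study's supplement reports totals of aligned reads per experiment, which were not used here.

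Peaks were read as 1-based positions, and every peak end fell within its GRCm38 chromosome (mm10 and RefSeq GRCm38.p6 share coordinates). Peaks overlapping a gene span extended by 20 kb by at least 1 bp were assigned to it, also where another gene was nearer. Distances are from peak centres. A promoter peak had its centre within 2 kb of 1 of 56164 start sites of coding transcripts, curated or predicted. Motifs were searched on both strands. Computations used Python 3.11.15, NumPy 2.4.6, SciPy 1.17.1, pysam 0.24.0, samtools 1.23.1 and Matplotlib 3.10.9, and the scripts were tested on simulated peaks and sequences. All 9 members are named in the text, with every region held before MAC. Sequences are given for 8 such regions, ordered by number of lists and nearness to a start site, for promoters with a direct repeat, and for the Pparg and Nr1h2 promoters, which were chosen after their motif matches had been seen. The members, lists and motifs were chosen with earlier results of these data known. Window size, overlap, start site distance, motif letters and mismatches were varied. Some genes of the pathway lists are counted but not reported by name here.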

Additional observations from a re-analysis of the deposited data

How the results depend on the processing

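Of 192 alternative values, 172 stayed within 1.5 times the count, or within the interval of the share, given in the report, and 20 did not. The 172 include counts from the 6 lists with no peak at any member. These lists again had no peak in every setting, except HP RUNX1 with 50 kb on each side. Unchanged counts without a peak say little about stability. With the gene span alone, HP C/EBPβ fell to 4 peaks at 3 members, HP GFI1B to 1 peak at 1 member, and MAC C/EBPβ to 44 peaks. With 50 kb on each side, MES ELK4 had 2 peaks at 2 members, HP PU.1 11 peaks, HP RUNX1 1 peak at 1 member, and HP GFI1B 5 peaks at 5 members. Keeping only peaks whose nearest coding start site was that of the member left HP GFI1B with 1 peak at 1 member, and left 60 of 71 MAC C/EBPβ and 89 of 107 MAC PU.1 peaks. Counting start sites within 5 kb gave promoter shares of 40.8% (C/EBPβ) and 34.6% (PU.1). The shorter AGGAAGT was in 29.9% of MAC PU.1 peaks, and TTGCGCAA in 1.41% of MAC C/EBPβ peaks. Direct repeats with a spacer of 1 or 4 were in 15.7% of the 178 MAC peaks with up to 2 mismatches, 0.562% with up to 1 and 60.7% with up to 3, so their share is set by the mismatch limit. The overlap of C/EBPβ and PU.1 stayed within its interval under all alternatives tried. Leaving out Abcg1 was chosen after seeing the data. No paired analysis was possible because each stage and factor has 1 list and the results come from no test. For the same reason no replicate could be left out, and a stricter peak threshold could not be tried because the lists hold no score.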

Other observations

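The letters TTGCGACA were noticed when the early C/EBPβ regions at the Nr1h3 start site and between Apoc1 and Apoe were read, since both lack TTGCNNAA. Counted afterwards over whole C/EBPβ lists, they were in 28 of 1177 MES peaks (2.38%, 1.59 to 3.42%), 20 of 715 HB peaks (2.80%, 1.72 to 4.29%), 88 of 2716 HP peaks (3.24%, 2.61 to 3.98%) and 668 of 55471 MAC peaks (1.20%, 1.12 to 1.30%). In MAC PU.1 peaks they were in 0.252%, and in the tabulated promoters, which are 300 bp against 400 bp for peaks, in 0.253%. TTGCNNAA was in 61.3% of MES, 59.2% of HB, 64.0% of HP and 41.9% of MAC C/EBPβ peaks. At the members the letters also occurred in an Abcg1 peak of MAC C/EBPβ, 0 bp from its centre. What binds these letters was not tested.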
